A study of Mus musculus with 6 samples.

Results

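The 9 genes described here encode ligands of the tumor necrosis factor (TNF) superfamily: *Tnf*, *Lta*, *Ltb*, *Cd40lg*, *Fasl*, *Tnfsf8*, *Tnfsf10*, *Tnfsf11* and *Tnfsf14*. They were chosen by name, as ligands that T cells are known to make, from the 45777 gene symbols in the tables. Splenic T cells of female C57BL/6 mice, 7 weeks old, were sorted into CD4+Lrig1+ and CD4+Lrig1- fractions, and their RNA was sequenced in bulk. No treatment or genetic change is named for either group. Lrig1 is a transmembrane protein with leucine-rich repeats, here the marker that divided the cells. The labels list 6 samples, 3 per group. The values come from 2 libraries per group, since 2 tables (set 1 and set 2) each hold 1 CD4+Lrig1+ and 1 CD4+Lrig1- library. The sources do not say whether mice were pooled or whether a set shares its animals, so p-values measure only the spread between these libraries, which may be technical.

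TNF superfamily ligands are mostly made as trimeric proteins anchored in the cell membrane, and several are cut from the surface by proteases. They bind TNF receptor superfamily members on neighbouring cells, some of which recruit TRAF adaptors and activate NF-κB, while others carry a death domain and can start apoptosis. In CD4+ T cells these ligands are among the means by which help is given to B cells and dendritic cells, lymphoid tissue is organized and target cells can be killed.

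The libraries held 44865070 to 59977951 estimated counts on genes. The 4 genes used to check the sort were higher in the CD4+Lrig1+ library of each set. *Lrig1* had 221 and 129 CPM (counts scaled to a common library size) in CD4+Lrig1+ and 75.4 and 36.7 CPM in CD4+Lrig1- T cells of sets 1 and 2. *Foxp3*, the lineage factor of regulatory T cells, had 589 and 615 CPM against 48.9 and 30.7 CPM. The pan-T cell genes and *Cd4* were abundant in every library, summing over 9 genes to 4197 to 6575 CPM. Genes of other cells were also detected, and more so in set 2. The 10 B cell genes summed to 98.3 and 391 CPM in CD4+Lrig1+ and to 78.5 and 775 CPM in CD4+Lrig1- T cells of sets 1 and 2. The 8 natural killer (NK) cell genes summed to 41.9 and 87.0 CPM against 64.8 and 171 CPM. The 2 *Cd8* genes, the 8 myeloid genes and the 5 granulocyte genes summed to at most 183 CPM in any library. Of these markers, *Ly6g* had a count of 0 in at least 1 library.

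Of the 9 ligands, 7 were higher and 2 were lower in CD4+Lrig1+ than in CD4+Lrig1- T cells in each of the sets, as were 35.9% and 41.3% of all genes tested. *Tnfsf11* showed the largest difference, from 5.19-fold to 7.08-fold higher. *Tnf*, *Lta* and *Tnfsf8* were from 1.59-fold to 2.55-fold higher, *Tnfsf14*, *Tnfsf10* and *Ltb* from 1.26-fold to 1.91-fold higher. *Cd40lg* and *Fasl* were higher in CD4+Lrig1- T cells, from 1.33-fold to 1.82-fold. Since these are bulk samples, fewer cells that make a transcript and less of it in each cell cannot be told apart.

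The tests ran over all 16123 genes that passed the filter on low counts, all 9 ligands among them. edgeR's quasi-likelihood test on the group alone called 0 ligands at an adjusted p under 0.05, and 0% of all genes. At an unadjusted p under 0.05 that test held 3 ligands (*Lta*, *Tnfsf8* and *Tnfsf11*) and 901 genes in all. The sets stood further apart than the groups did. Log2 CPM across genes (not replicates of each other) correlated at 0.960 and 0.959 between the groups of a set, but at 0.908 between the sets in either group. With the table that holds a library added to the fit as a term (the table block), all 9 ligands passed, 7 higher and 2 lower. The background in that fit was 14.6% of the 16123 genes higher and 12.8% lower. The median log2 fold change of the 9 ligands in that fit was 0.74, against -0.04 over all genes tested.

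2 other tests without the block, the Wald test of DESeq2 and edgeR's exact test, each called 1 ligand, *Tnfsf11*. Their backgrounds were 1.63% and 1.22% of genes higher. At least 1.5-fold higher in both sets were 4 ligands (*Tnf*, *Lta*, *Tnfsf8* and *Tnfsf11*), against 12.0% of all genes tested. At least 1.5-fold lower in both sets was 1 ligand, *Cd40lg*, against 7.39% of genes. In 8 of the 9 ligands the CPM of the 2 groups did not overlap over the 4 libraries, 6 with CD4+Lrig1+ above and 2 with it below. The same held for 14.3% and 11.8% of all genes. Which groups overlap depends on the scaling between the sets. In TPM (scaled by transcript length, with the same sum in every library), a unit chosen for this after seeing the data, 6 ligands did not overlap, 4 above and 2 below, against 15.7% and 7.19% of all genes. In that unit *Ltb* did not overlap, while *Tnf*, *Tnfsf8* and *Tnfsf10* did. For any 1 gene, 2 libraries against 2 allow no p under 0.333 in an exact permutation test.

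**Figure D1:**
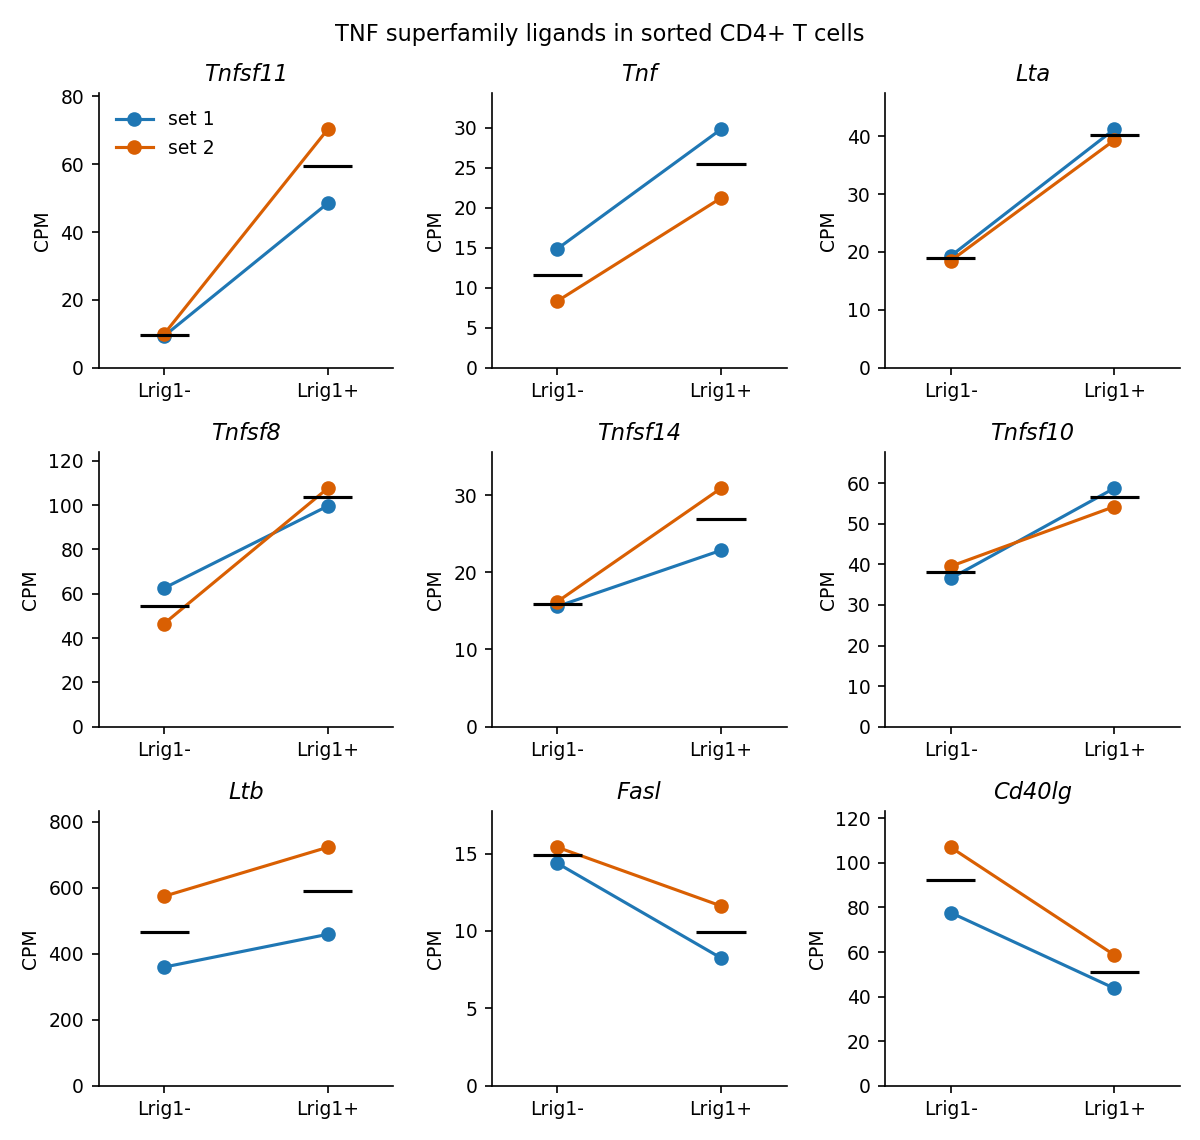
CPM of each ligand (vertical axes, from 0) in CD4+Lrig1- and CD4+Lrig1+ T cells, with 1 point per library, a line joining the libraries of a set and a black bar at the mean of each group (n = 2). The lines of both sets climb in 7 panels and descend in those of *Fasl* and *Cd40lg*, and only in the panel of *Ltb* do the points of the 2 groups overlap.

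*Tnfsf11* encodes RANKL, the ligand of RANK, which is known for osteoclast formation, lymph node development and contacts between T cells and dendritic cells. It lies on chromosome 14 of GRCm38 (chr14:78277446-78308043, minus strand). Its level was 48.5 and 70.3 CPM in CD4+Lrig1+ T cells of sets 1 and 2, and 9.34 and 9.92 CPM in CD4+Lrig1- T cells. In CPM, both CD4+Lrig1- libraries were low and close to each other, and both CD4+Lrig1+ libraries stood far above them. In TPM the CD4+Lrig1- libraries of sets 1 and 2 were further apart, at 10.7 and 6.26, against 54.2 and 48.0 in CD4+Lrig1+. The ratio of CPM was 5.19 in set 1, with a 95% exact binomial interval of 4.696 to 5.76, and 7.08 (6.47 to 7.77) in set 2. These intervals cover counting error only. The table block gave a log2 fold change of 2.60 ± 0.13 (SE; adjusted p = 2.19e-05 with edgeR), and without the block the adjusted p was 0.501. The adjusted p was 4.18e-05 in DESeq2's Wald test and 0.000364 in edgeR's exact test. By its p in the table block, *Tnfsf11* stood at place 82 of the 16123 genes.

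*Tnfsf8* encodes CD30L, the ligand of CD30, which costimulates activated T cells. The gene lies at chr4:63831202-63861508 (minus strand). It had 99.6 and 108 CPM in CD4+Lrig1+ T cells and 62.6 and 46.5 CPM in CD4+Lrig1- T cells of sets 1 and 2. In CPM the CD4+Lrig1+ libraries were close to each other and above both others. With TPM the groups overlapped, at 73.0 and 45.7 in CD4+Lrig1+ against 46.9 and 18.3 in CD4+Lrig1- T cells of sets 1 and 2. The ratio of CPM was 1.59 (1.52 to 1.67) in set 1 and 2.31 (2.21 to 2.42) in set 2. The table block gave a log2 fold change of 0.94 ± 0.12 (SE; adjusted p = 0.00158 in edgeR's quasi-likelihood test), against an adjusted p of 0.816 without it.

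*Tnfsf14* encodes LIGHT, which binds HVEM and the lymphotoxin β receptor and can costimulate T cells. It lies on chromosome 17, at chr17:57189474-57194181. It had 22.8 and 30.9 CPM in CD4+Lrig1+ T cells against 15.6 and 16.2 CPM in CD4+Lrig1- T cells. The groups did not overlap, and in CPM the spread lay mainly between the CD4+Lrig1+ libraries. When measured in TPM, CD4+Lrig1+ T cells had 30.5 and 25.2 against 21.4 and 12.2 in CD4+Lrig1- T cells. The ratio of CPM was 1.47 (1.34 to 1.61) in set 1 and 1.91 (1.76 to 2.07) in set 2. With the table block the log2 fold change was 0.74 ± 0.12 (SE; adjusted p = 0.00372), and without the block the adjusted p was 0.996, both from edgeR.

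3 of the ligands share 1 stretch of chromosome 17, within the major histocompatibility complex. *Ltb* (chr17:35194507-35196305) is on the plus strand, and *Tnf* (chr17:35199367-35202007) and *Lta* (chr17:35203165-35205578) are on the minus strand. From the start of *Ltb* to the far end of *Lta* the stretch spans 11072 bases. *Ltb* and *Tnf* run towards each other with 3061 bases between them, and *Lta* lies upstream of *Tnf* with 1157 bases between them. In each set, all 3 had more counts in the CD4+Lrig1+ library. *Tnfsf14* is on the same chromosome, 21983895 bases beyond *Lta*.

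*Tnf* encodes TNF, the inflammatory cytokine that gives the family its name. It had 29.8 and 21.2 CPM in CD4+Lrig1+ T cells and 14.9 and 8.33 CPM in CD4+Lrig1- T cells of sets 1 and 2. Set 1 was above set 2 in both groups. The ratio was 2.01 (1.83 to 2.19) in set 1 and 2.55 (2.28 to 2.84) in set 2. With the table block the log2 fold change was 1.17 ± 0.12 (SE; adjusted p = 0.000468), against an adjusted p of 0.954 without the block, both from edgeR.

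*Lta* encodes lymphotoxin α, which is secreted as a homotrimer or held at the surface by lymphotoxin β. It had 41.2 and 39.3 CPM in CD4+Lrig1+ T cells and 19.3 and 18.5 CPM in CD4+Lrig1- T cells. In CPM the libraries of a group were nearly equal, with group means of 40.2 ± 1.34 and 18.9 ± 0.577 CPM (SD, n = 2 each). Measured as TPM they were further apart, with 74.5 and 43.4 in CD4+Lrig1+ and 35.8 and 18.8 in CD4+Lrig1- T cells of sets 1 and 2. The ratio of CPM was 2.14 (1.98 to 2.31) in set 1 and 2.13 (1.98 to 2.296) in set 2. The log2 fold change with the table block was 1.09 ± 0.09 (SE; adjusted p = 0.00019), and without it the adjusted p was 0.649, with edgeR in both.

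*Ltb* encodes lymphotoxin β, the membrane anchor of the lymphotoxin heterotrimer, which signals to stromal cells through its own receptor. It had 459 and 723 CPM in CD4+Lrig1+ T cells and 359 and 574 CPM in CD4+Lrig1- T cells of sets 1 and 2. In CPM, though not in TPM, the groups overlapped, since CD4+Lrig1- T cells of set 2 were above CD4+Lrig1+ T cells of set 1. Within the sets the ratios of CPM were almost the same, 1.28 (1.252 to 1.30) in set 1 and 1.26 (1.24 to 1.28) in set 2. The table block gave a log2 fold change of 0.34 ± 0.09 (SE; adjusted p = 0.0267 in edgeR), against an adjusted p of 1.00 without it. Without the block, leaving out the CD4+Lrig1+ library of set 2 turned the log2 fold change of *Ltb* from 0.34 to -0.030. In CPM, *Ltb* alone of the 9 ligands differed more between the sets in each group (by 0.66 and 0.68 on the log2 scale) than between the groups in either set. B cells are known to express *Lta*, *Ltb* and *Tnf* as well. The 10 B cell genes had a median log2 ratio of -0.09 in set 1 and -1.13 in set 2, and their part in the values of these 3 ligands was not tested.

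The 250 bases before the start of these 3 genes are shown because they neighbour each other and shared this direction, and those of *Tnfsf11* because its difference was the largest. They are from RefSeq (GRCm38.p6), are written 5′ to 3′ on the strand of the gene and end at the base before the start that the table gives. For *Lta* that start is the one of transcript NM_010735, so 227 of the 250 bases lie inside the predicted transcript that starts further upstream. The windows are chr17:35202008-35202257 for *Tnf*, chr17:35205352-35205601 for *Lta* and chr17:35194257-35194506 for *Ltb*, and chr14:78308044-78308293 for *Tnfsf11*. Capitals mark a match, on either strand, to the NFAT core GGAAA, the AP-1 motif TGANTCA, the NF-κB motif GGGNNNNNCC, the forkhead motif TGTTTAC or the TATA box TATAAA.
Tnf: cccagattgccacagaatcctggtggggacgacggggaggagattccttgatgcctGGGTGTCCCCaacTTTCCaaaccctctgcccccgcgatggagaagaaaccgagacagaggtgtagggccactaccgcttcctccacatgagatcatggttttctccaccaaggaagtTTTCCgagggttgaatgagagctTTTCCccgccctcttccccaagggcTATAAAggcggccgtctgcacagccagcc
Lta: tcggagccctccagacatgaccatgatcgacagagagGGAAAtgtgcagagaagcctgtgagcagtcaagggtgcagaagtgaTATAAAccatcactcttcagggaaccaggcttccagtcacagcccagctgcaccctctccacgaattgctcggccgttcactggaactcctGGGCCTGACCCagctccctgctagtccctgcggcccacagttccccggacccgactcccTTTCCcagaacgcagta
Ltb: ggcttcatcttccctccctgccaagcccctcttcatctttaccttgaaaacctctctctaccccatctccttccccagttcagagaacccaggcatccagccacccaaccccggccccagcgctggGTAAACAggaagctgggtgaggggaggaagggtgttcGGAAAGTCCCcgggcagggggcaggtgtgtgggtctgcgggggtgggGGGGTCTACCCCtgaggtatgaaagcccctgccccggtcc
Tnfsf11: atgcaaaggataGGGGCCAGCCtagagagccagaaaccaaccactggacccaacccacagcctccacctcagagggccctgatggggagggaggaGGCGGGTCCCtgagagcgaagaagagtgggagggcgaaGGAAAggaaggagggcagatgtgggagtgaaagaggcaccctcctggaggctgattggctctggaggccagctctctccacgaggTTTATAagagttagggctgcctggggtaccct

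The search ran over 300 bases per promoter, from 250 before the start to 50 from it onwards. Of the 9 ligands, 8 had a promoter in the RefSeq table, and *Cd40lg* had none there. The NFAT core was in 8 of the 8, against 61.3% of all 32851 promoters. The NF-κB motif was in 6 of the 8 (those of *Fasl*, *Tnfsf11*, *Ltb*, *Tnf*, *Lta* and *Tnfsf14*), against 50.8% of all. In *Ltb* the NFAT core that begins 87 bases before the start lies inside an NF-κB match. A TATA box was found in *Tnf*, *Lta* and *Tnfsf11*, against 13.6% of all promoters. That of *Tnf* begins 29 bases before the start and that of *Tnfsf11*, on the opposite strand, 32 bases before it. That of *Lta* begins 167 bases before the start of NM_010735, inside the span of the predicted transcript that starts further upstream. The forkhead motif was in *Ltb* alone of the 8 and in 3.65% of all promoters, and the AP-1 motif was in *Tnfsf14* alone and in 7.81% of all. A match of letters is a description and does not show that a factor binds there.

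*Tnfsf10* encodes TRAIL, which can trigger apoptosis through death receptors. It lies at chr3:27317077-27339665 on the plus strand. It had 58.8 and 54.2 CPM in CD4+Lrig1+ T cells and 36.5 and 39.5 CPM in CD4+Lrig1- T cells. In CPM the groups did not overlap and the libraries within each were close. The groups overlapped in TPM, with 29.7 and 16.7 in CD4+Lrig1+ against 19.0 and 11.3 in CD4+Lrig1- T cells of sets 1 and 2. The ratio of CPM was 1.61 (1.52 to 1.71) in set 1 and 1.37 (1.30 to 1.45) in set 2. The log2 fold change with the table block was 0.57 ± 0.09 (SE; adjusted p = 0.00372), against an adjusted p of 1.00 without it, both in edgeR.

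*Cd40lg* encodes CD40L, through which helper T cells activate B cells, dendritic cells and macrophages. It lies on the X chromosome at chrX:57212143-57224042. It had 43.7 and 58.7 CPM in CD4+Lrig1+ T cells and 77.7 and 107 CPM in CD4+Lrig1- T cells of sets 1 and 2. Both CD4+Lrig1- libraries were above both CD4+Lrig1+ libraries. Set 2 was above set 1 in each group in CPM, and set 1 above set 2 in TPM. The CPM in CD4+Lrig1- over that in CD4+Lrig1+ T cells was 1.78 (1.69 to 1.87) in set 1 and 1.82 (1.75 to 1.90) in set 2. The table block gave a log2 fold change of -0.85 ± 0.07 (SE; adjusted p = 0.000221), and without it the adjusted p was 0.982, both in edgeR.

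*Fasl* encodes Fas ligand, the death ligand that kills cells bearing Fas. It lies at chr1:161780691-161788495 on the minus strand. It had 8.25 and 11.6 CPM in CD4+Lrig1+ T cells and 14.4 and 15.4 CPM in CD4+Lrig1- T cells. The groups did not overlap, though in CPM the CD4+Lrig1+ library of set 2 came close to the CD4+Lrig1- library of set 1. As TPM, CD4+Lrig1+ T cells had 10.6 and 9.16 against 19.1 and 11.3 in CD4+Lrig1- T cells. The CPM in CD4+Lrig1- over that in CD4+Lrig1+ T cells was 1.74 (1.54 to 1.97) in set 1 and 1.33 (1.20 to 1.47) in set 2. The log2 fold change with the table block was -0.60 ± 0.13 (SE; adjusted p = 0.0155), against an adjusted p of 1.00 without it, both in edgeR. NK cells and CD8 T cells are known to make Fas ligand. Of the 8 NK cell genes, 7 were lower in the CD4+Lrig1+ library of each set and *Eomes* was higher. *Klrb1c* had 6.29 and 13.6 CPM in CD4+Lrig1+ and 21.9 and 46.7 CPM in CD4+Lrig1- T cells. The 2 *Cd8* genes were lower in both sets too, summing to 14.1 and 51.6 CPM against 19.5 and 97.3 CPM, and the part of these cells in the difference of *Fasl* was not tested.

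**Figure D2:**
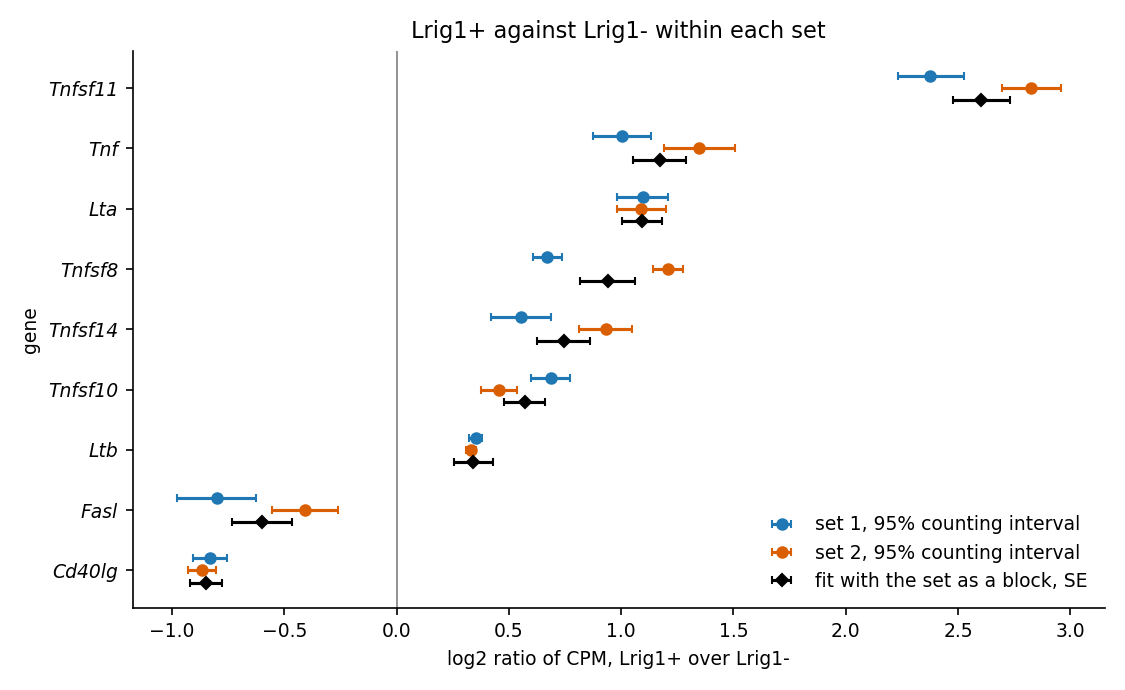
Log2 ratio of CPM in CD4+Lrig1+ over CD4+Lrig1- T cells (horizontal axis) for each ligand. Circles are the sets with 95% intervals for counting error, and diamonds are the fit with the table block with its SE. *Tnfsf11* stands apart at 2.38 and 2.82, and the circles of *Lta*, *Ltb* and *Cd40lg* nearly coincide between sets.

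The size of the difference was repeated between sets to a varying degree. In *Lta*, *Ltb* and *Cd40lg* the intervals of the 2 sets overlapped, and whether their ratios differed between the sets was not tested. In the other 6 ligands the intervals, which cover counting error only, did not overlap. The difference was larger in set 2 for *Tnf*, *Tnfsf8*, *Tnfsf11* and *Tnfsf14*, and larger in set 1 for *Tnfsf10* and *Fasl*. *Tnfsf8* showed the widest gap, with log2 ratios of 0.67 and 1.21. All 9 intervals in each set left out a ratio of 1. No share of all genes is given for these intervals, so the counts of ligands by interval have no background to be set against.

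To compare levels between genes, TPM was used, which divides the reads of a transcript by its length and has the same sum in every library. *Ltb* was the most abundant of the 9 ligands in every library, with 1047 and 1007 TPM in CD4+Lrig1+ and 842 and 739 TPM in CD4+Lrig1- T cells of sets 1 and 2. It took from 71.5% to 78.3% of the summed TPM of the 9. Among all genes its rank by TPM was from 129 to 157.

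*Cd40lg* came second in every library, with 87.3 and 71.6 TPM in CD4+Lrig1+ and 160 and 121 TPM in CD4+Lrig1- T cells. *Ltb* exceeded it 12.0-fold and 14.1-fold in CD4+Lrig1+ and 5.28-fold and 6.12-fold in CD4+Lrig1- T cells. Apart from *Ltb*, *Cd40lg* made up 21.6% and 25.6% of the TPM of the 8 remaining ligands in CD4+Lrig1+ T cells and 47.5% and 58.6% in CD4+Lrig1- T cells. *Tnfsf11* went the other way, from 3.19% and 3.04% of those 8 ligands in CD4+Lrig1- to 13.4% and 17.2% in CD4+Lrig1+ T cells.

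Of the 9 ligands, *Tnfsf11* had the lowest TPM in CD4+Lrig1- T cells of either set, 10.7 and 6.26. In CD4+Lrig1+ T cells its rank was 5 in set 1 and 3 in set 2, with 54.2 and 48.0 TPM. *Fasl* was the lowest in CD4+Lrig1+ T cells, with 10.6 and 9.16 TPM. By the mean of the 2 CD4+Lrig1+ libraries, the order was *Ltb*, *Cd40lg*, *Tnfsf8*, *Lta*, *Tnfsf11*, *Tnf*, *Tnfsf14*, *Tnfsf10* and *Fasl*. Neighbours in it whose ranges over the sets did not overlap were *Ltb* and *Cd40lg*, *Tnfsf11* and *Tnf*, and *Tnfsf10* and *Fasl*. By the mean of the 2 CD4+Lrig1- libraries, the order was *Ltb*, *Cd40lg*, *Tnfsf8*, *Lta*, *Tnfsf14*, *Tnf*, *Fasl*, *Tnfsf10* and *Tnfsf11*. There the ranges were separate for *Ltb* and *Cd40lg*, *Cd40lg* and *Tnfsf8*, and *Tnfsf10* and *Tnfsf11*, and those of the other neighbours overlapped. Such ranges include the difference between the sets, so an overlap does not show that 2 neighbours were equal within a set.

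**Figure D3:**
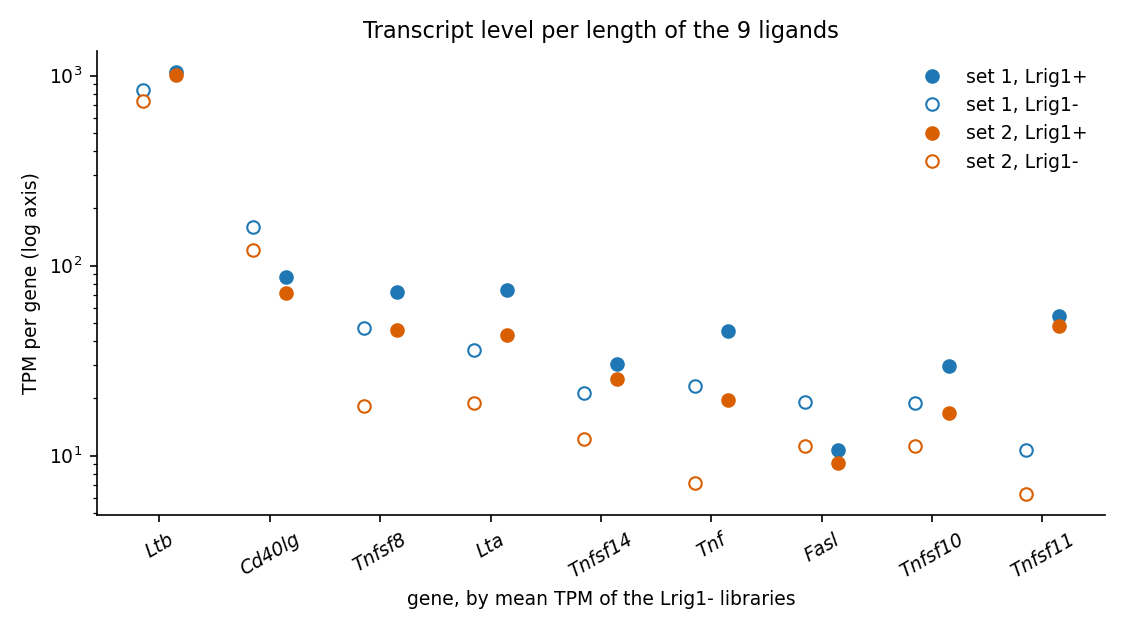
TPM of the 9 ligands (vertical log axis) ordered by the mean of the CD4+Lrig1- libraries, with CD4+Lrig1+ libraries filled, CD4+Lrig1- libraries open and a colour for each set. *Ltb* has at least 739 TPM in every library, and *Tnfsf11*, the lowest in CD4+Lrig1- T cells at 10.7 and 6.26 TPM, reaches 54.2 and 48.0 TPM in CD4+Lrig1+ T cells.

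The tables give counts for each transcript, estimated by the assembler where transcripts of a gene share sequence. *Ltb*, *Cd40lg*, *Tnfsf10*, *Tnfsf11* and *Tnfsf14* had 1 transcript each, and *Tnf*, *Lta*, *Tnfsf8* and *Fasl* had 2. In *Tnf*, variant 2 (NM_001278601) had 145 of 712 counts in CD4+Lrig1- T cells of set 1 and 117 of 450 in set 2. These are 20.4% (17.5 to 23.5, exact binomial interval) and 26.0% (22.0 to 30.3). In CD4+Lrig1+ T cells variant 2 was listed at 0 of 1551 and 0 of 1219 counts, with upper bounds of 0.238% and 0.302% by the same interval. The limit of 3 counts that stands here for a count of 0 gives 0.193% and 0.246%. The variants are 1653 and 1605 bases long, a difference of 48 bases, so most of their reads cannot tell them apart and the split rests on the assembler's estimate. The intervals and bounds take each estimated count as a read assigned to a variant. They leave out the error of that estimate and are too narrow for it. Counted for variant 1 alone, *Tnf* had 1551 and 1219 counts against 567 and 333.

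The other transcript shares did not separate the groups. The predicted *Lta* transcript that starts 227 bases further upstream took 25.9% and 10.1% of counts in CD4+Lrig1+ and 20.8% and 12.9% in CD4+Lrig1- T cells of sets 1 and 2. The shorter *Tnfsf8* transcript, of 2228 bases against 4002, took 21.9% and 14.2% against 21.2% and 14.3%. In *Fasl* the shorter transcript took 12.1% and 7.80% against 7.85% and 14.4%, in opposite directions in the sets.

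**Figure D4:**
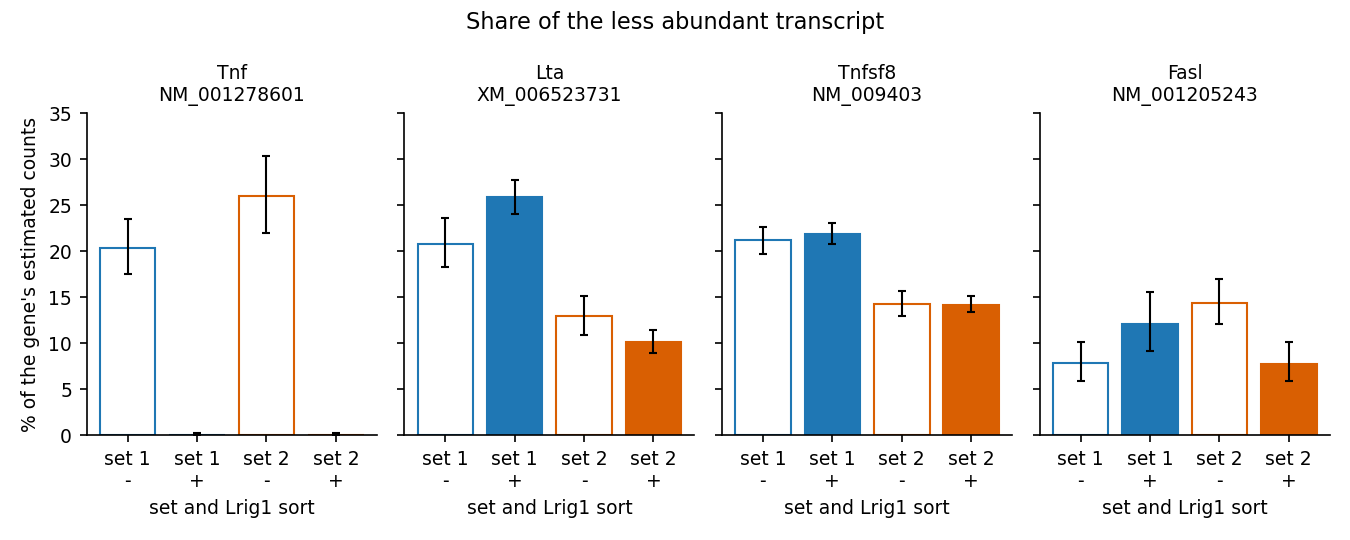
Share of the less abundant transcript in the estimated counts of each ligand with 2 transcripts (vertical axis, %), by set and Lrig1 sort, with exact 95% binomial intervals. The intervals take each estimated count as an assigned read and leave out the error of the assembler's split. The bars of *Tnf* are at 0% in both CD4+Lrig1+ libraries and at 20.4% and 26.0% in the CD4+Lrig1- libraries.

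The remaining 9 ligand genes of the superfamily were scarce. They summed to 7.17 and 10.1 CPM in CD4+Lrig1+ and 3.20 and 2.76 CPM in CD4+Lrig1- T cells, against 812 and 1117 and 610 and 836 CPM for the 9 described above. *Tnfsf9*, which encodes 4-1BBL, had 3.56 and 3.69 CPM against 2.61 and 1.48 CPM, and did not pass with the table block (adjusted p = 0.0637 in edgeR). *Tnfsf13b*, which encodes the B cell survival factor BAFF, had 1.73 and 2.09 CPM against 0.418 and 0.537 CPM and passed (log2 fold change 1.998 ± 0.37, SE; adjusted p = 0.00738 in edgeR). Genes of other cells were detected too, and the part of those cells in such low values was not tested.

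The others were close to the limit of detection. *Tnfsf4*, which encodes OX40L, had 34 and 102 counts in CD4+Lrig1+ and 0 and 29 in CD4+Lrig1- T cells. *Cd70* had 13 and 22 counts against 0 and 0, and *Tnfsf15* had 34 and 17 against 0 and 0. Set against a floor of 3 counts per library, these are at least 3.99-fold and 6.90-fold higher for *Cd70* and at least 10.4-fold and 5.33-fold higher for *Tnfsf15*. *Tnfsf12* had 13 and 52 counts against 4 and 0. These 4 genes passed the filter on low counts mainly through their CD4+Lrig1+ libraries, so no test of them is given. *Tnfsf13*, *Tnfsf18* and *Eda* did not pass the filter, with at most 44 counts in a library.

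The receptors of the 9 ligands were read from the same fit, as a list of 10 genes of which 9 were tested. With the table block 3 were higher and 2 were lower in CD4+Lrig1+ T cells, against the background of 14.6% and 12.8% of genes given above. *Tnfrsf8*, the receptor of CD30L, had 24.9 and 30.2 CPM in CD4+Lrig1+ and 0.418 and 0.778 CPM in CD4+Lrig1- T cells (log2 fold change 5.52 ± 0.18, SE; adjusted p = 4.8e-06 in edgeR). *Tnfrsf1b*, which encodes TNFR2, had 326 and 407 CPM against 90.0 and 114 CPM (1.85 ± 0.08). *Tnfrsf1a*, which encodes the death domain receptor TNFR1, had 39.6 and 45.6 CPM against 58.4 and 70.3 CPM (-0.59 ± 0.08). The 2 receptors of TNF thus differed in opposite directions, each without overlap of the groups.

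*Fas* had 32.5 and 39.1 CPM in CD4+Lrig1+ against 22.5 and 29.4 CPM in CD4+Lrig1- T cells (log2 fold change 0.47 ± 0.09, SE), while its ligand was lower. *Cd40*, a receptor of B cells and other antigen-presenting cells, had 1.04 and 2.96 CPM against 2.05 and 6.76 CPM (-1.10 ± 0.23), with the sums of B cell genes as given above, and the part of B cells in it was not tested. *Ltbr*, *Tnfrsf10b* and *Tnfrsf11a*, which encode the lymphotoxin β receptor, the TRAIL receptor and RANK, had at most 6.93 CPM in any library and were not called. *Tnfrsf14*, which encodes HVEM, had 178 and 86.6 CPM against 205 and 90.9 CPM and was not called either. *Tnfrsf11b*, which encodes the RANKL decoy osteoprotegerin, had 0 counts in all 4 libraries.

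Downstream of the receptors, 15 signalling genes were tested, of which 3 were higher and 2 lower with the table block, close to the shares of 14.6% and 12.8% over all genes. *Traf1*, an adaptor that NF-κB is known to induce, had 221 and 162 CPM in CD4+Lrig1+ and 128 and 74.0 CPM in CD4+Lrig1- T cells (log2 fold change 0.96 ± 0.10, SE). The adaptor *Traf2* had 80.5 and 73.8 CPM against 65.2 and 59.4 CPM (0.31 ± 0.07). *Tnfaip3*, which encodes the NF-κB inhibitor A20, had 515 and 153 CPM against 390 and 111 CPM (0.43 ± 0.08). *Map3k14*, which encodes the kinase NIK of the noncanonical NF-κB pathway, had 84.6 and 51.1 CPM against 119 and 83.4 CPM (-0.60 ± 0.08). *Cflar*, which encodes the caspase inhibitor c-FLIP, had 196 and 96.6 CPM against 236 and 131 CPM (-0.36 ± 0.08). The median log2 fold change of the 15 genes was 0.02.

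Of 5 genes for the release of ligands from the cell surface, 4 were tested and 1 was called, lower, where 12.8% of all genes were. *Rhbdf2* encodes iRhom2, which carries the TNF-cleaving protease to the surface, and had 21.7 and 10.9 CPM in CD4+Lrig1+ against 33.5 and 18.4 CPM in CD4+Lrig1- T cells (log2 fold change -0.69 ± 0.10, SE). The protease itself, *Adam17*, had 94.5 and 71.8 CPM against 91.9 and 73.4 CPM and was not called, nor were *Adam10* and *Rhbdf1*. The log2 fold changes of the 3 genes not called ranged from 0.00 to 0.97. *Timp3* did not pass the filter.

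All 7 genes of proteins that bind cytokine messages and control their stability were tested, of which 2 were higher and 3 lower with the table block, where 14.6% and 12.8% of all genes were. *Zfp36l1*, a relative of tristetraprolin, had 646 and 432 CPM in CD4+Lrig1+ and 379 and 283 CPM in CD4+Lrig1- T cells (log2 fold change 0.69 ± 0.09, SE). *Zc3h12a*, which encodes the RNase Regnase-1, had a log2 fold change of 0.43 ± 0.10. *Zfp36l2*, *Rc3h1* and *Rc3h2* were lower, by -0.35 ± 0.11, -0.36 ± 0.07 and -0.30 ± 0.09. The group ranges of these genes, *Zfp36l1* excepted, overlapped over the 4 libraries.

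**Figure D5:**
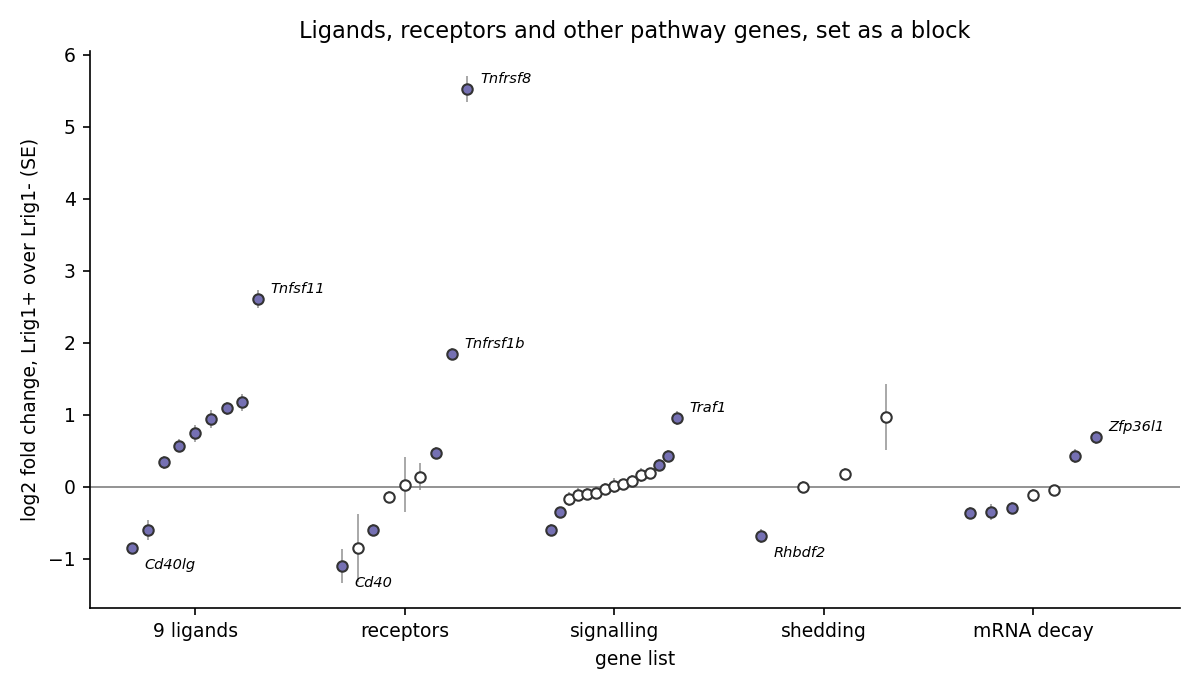
Log2 fold change of CD4+Lrig1+ over CD4+Lrig1- T cells with the table block (vertical axis, bars show the SE) for each tested gene of 5 lists (horizontal axis), filled where the adjusted p was under 0.05. All 9 ligands are filled, and the widest span is among the receptors, from *Cd40* at -1.10 to *Tnfrsf8* at 5.52.

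The genes outside these lists whose pattern over the 4 libraries was nearest to a ligand were found by the Euclidean distance of centred log2 CPM. For *Tnfsf11*, the nearest were *Poglut3*, *Ptprn2* and *Enkur*, at distances of 0.12, 0.14 and 0.15. *Poglut3* had 4.96 and 6.43 CPM in CD4+Lrig1+ and 0.856 and 0.926 CPM in CD4+Lrig1- T cells, while *Ptprn2* and *Enkur* had 0 CPM in both CD4+Lrig1- and at most 0.261 CPM in the CD4+Lrig1+ libraries. The distances of these last 2 genes depend on the prior count added before taking logs. For *Cd40lg*, the nearest were *Slc6a19*, *Bpnt1* and *Themis*, at 0.10, 0.11 and 0.11. *Themis*, which encodes a T cell receptor signalling protein of thymocytes and T cells, had 90.3 and 115 CPM in CD4+Lrig1+ and 160 and 234 CPM in CD4+Lrig1- T cells. With 4 libraries such distances describe these libraries only.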

How the data were processed

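Stranded mRNA libraries of sorted splenic T cells were sequenced as paired-end reads. By the submitters' processing notes the authors used Trimmomatic 0.38, HISAT2 2.1.0, Bowtie2 2.3.4.1 and StringTie 2.1.3b, with GRCm38. The deposited estimated counts and the deposited FPKM and TPM values were made by the authors per transcript. From 97.4% to 98.0% of the counts of 1 to 50 are the FPKM multiplied by the transcript length and 1 factor per library, then rounded up. The deposited gene and transcript positions are those of RefSeq on GRCm38.p6 for all 9 ligands. Left out were 6 per-sample columns of another table, whose names do not state the Lrig1 group. Column names give no replicate number, so 2 of the 3 samples in each group were used without knowing which.

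Counts were summed per gene symbol, filtered with filterByExpr, normalized by TMM and tested with the quasi-likelihood test of edgeR 4.0.16 in R 4.3.3, with Benjamini-Hochberg adjustment over all 16123 genes, at 0.05. CPM is relative to the TMM-scaled library size. The SE of a log2 fold change was worked back from the test, as its absolute value over the square root of the quasi-likelihood F. Ratios within a set have exact binomial intervals, with scipy 1.17.1 in Python 3.11.15. The main model holds the group only (2 residual degrees of freedom), and adding the table as a block leaves 1. The alternatives were DESeq2 1.42.0, edgeR's exact test, limma 3.58.1 on log2 FPKM with a pseudocount of 1 or 0.1, other scalings, filters, folds and thresholds, and each library left out. The members and lists were chosen with earlier results of these data known. The genes named are the 18 ligand genes, the 10 receptors, up to 5 genes of smallest p in the table block from each of the signalling, release and mRNA stability lists, the sort genes, and 3 genes nearest to a ligand in each direction. *Adam10*, *Adam17*, *Rhbdf1*, *Timp3* and the markers *Klrb1c*, *Eomes* and *Ly6g* were named to account for their lists. Markers of other cells were fixed as lists.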

Additional observations from a re-analysis of the deposited data

How the results depend on the processing

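No paired analysis was possible because the columns carry no replicate numbers, so the replicate block was not run. Libraries could be matched only by the table that holds them, in the table block. Fitted on the group alone, 0 ligands passed in each direction. With the table block, with that block under DESeq2's size factors, and in DESeq2's Wald test with the table as a term, 7 were called higher and 2 lower. Of all 16123 genes, these fits called 2358, 2208 and 1847 higher and 2056, 2388 and 1960 lower, in that order. The last 2 of these fits were chosen after seeing the data. With the table block at an adjusted p under 0.01, also chosen afterwards, 6 ligands were called higher and 1 lower. No share of all genes is given at that threshold. DESeq2's Wald test and edgeR's exact test without a table term called 1 higher and 0 lower. The libraries of a group differed between sets alike, since across genes the difference between sets correlated at 0.883 between the groups. Leaving out each library in turn gave from 0 to 0 ligands higher and from 0 to 0 lower. DESeq2's size factors, no filter, at least 10 counts in every library, both limma fits and an adjusted p under 0.1 gave 0 in each direction too. At the laxer fold tried, below 1.5-fold, 7 ligands were higher and 2 lower in both sets. At 2-fold, 3 were higher and 0 lower, against 4 and 1 at 1.5-fold. No share of all genes is given at the laxer fold or at 2-fold, so these counts have no background to be set against. Library totals, DESeq2's size factors, FPKM and TPM (the last chosen after seeing the data) left the counts at 1.5-fold at 4 and 1. Of 126 fold changes of single ligands under an alternative, 1 reversed, that of *Ltb* to -0.030 once the set 2 library of CD4+Lrig1+ T cells was left out. Leaving out each library in turn, the value of *Ltb* ran from -0.030 to 0.72. The others kept their direction, with those of *Tnfsf11* from 2.33 to 2.90 and those of *Cd40lg* from -1.08 to -0.60. Over all genes the calls in each direction ranged from 0 to 2358 higher and 0 to 2388 lower. The scalings moved the median of all genes by less than 0.1 on the log2 scale against TMM except in set 2 under library totals, where it was 0.03 against -0.07. With 2 libraries per group the spread between libraries is poorly known, and the fit with the table block rests on 1 residual degree of freedom per gene, shared over genes.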
